A study of Mus musculus with 7 samples.

Results

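The 41 genes described here encode proteins that sense DNA damage, signal it or repair it. They were taken from a list of gene symbols, matched to Ensembl identifiers through the GENCODE mouse annotation. All 41 were found among the 14851 genes of the deposited table, and 38 had a mean of at least 10 normalised counts over the 7 livers and entered the comparison of genotypes. The other 3 were *Fancd2*, *Fanci* and *Mutyh*.

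The livers came from male C57BL/6J mice of about 70 days, taken 8 h after a single intraperitoneal dose of carbon tetrachloride (CCl4, 1 mL/kg of a 20% stock in corn oil), a solvent that hepatocytes convert into reactive radicals. In the 4 *Albumin-Cre; p53 FL/FL* mice (FL), Cre made under the hepatocyte *Albumin* promoter removes *Trp53*, so most other cells of the liver keep it. The 3 *Albumin-Cre; p53 WT/WT* mice (WT) carry the same Cre with intact *Trp53*. Every liver had received CCl4, some mice of both genotypes also carried a *Rosa26 LSL-tdRFP* reporter, and the sources used here do not say which. The question was whether transcripts of the repair machinery differed between damaged livers with and without hepatocyte p53.

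The DNA damage response begins with kinases and break-binding complexes that mark the lesion, and it passes to repair pathways that each handle a kind of lesion. Broken ends are either rejoined directly or copied from the sister chromatid by homologous recombination, which needs a replicated chromosome. Small oxidised or alkylated bases are cut out by base excision repair, bulky adducts by nucleotide excision repair, and replication errors by mismatch repair. p53 is a transcription factor that the damage kinases activate, and some repair genes are among its targets. Much of this machinery is controlled through protein modification, which RNA levels do not show.

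*Trp53* itself served as a check of the labels. The FL livers, in the order of replicates 1 to 4, were listed at 131, 130, 217 and 110 normalised counts, and the WT livers, from 1 to 3, at 876, 688 and 831, so the groups did not overlap. The order of replicates is the same in every list of values that follows. The depth was estimated at 11.9 to 19.5 M reads per FL liver and 15.4 to 17.1 M per WT liver. The first principal component held 66.7% of the variance, and on it WT replicate 2 (at 82.0) and FL replicate 3 (at 29.2) stood apart from the other 5 livers (-25.6 to -19.1). The 10 hepatocyte genes in the table summed to between 1296802 and 1970441 normalised counts per liver.

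No damage signalling or repair gene passed the test between FL and WT livers after adjustment over all tested genes. The limma adjusted p-value was 0.999 for each of the 38 tested members (limma on log2(normalised count + 1), Benjamini-Hochberg adjustment over 12545 genes). Among all tested genes 2 (0.0159%) passed an adjusted p of 0.05. *Trp53* itself, with an FL mean at 18.4% of the WT mean, reached an adjusted p of 0.0447 by limma. The paper, which compared these genotypes with DESeq2, listed more genes than the 2 here. The log2 fold changes, given throughout as FL minus WT, ran from -0.57 for *Fanca* to 0.35 for *Xpa* with a median of -0.09, against 0.01 for all tested genes, and 24 of the 38 lay within 0.2 of 0. Single WT livers moved these values. Without WT replicate 2 the median was -0.03, the lowest member was *Pms2* (-0.33) and the highest *Brca2* (0.45), and without WT replicate 1 or 3 the median was -0.21 or -0.17.

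The 95% confidence intervals of limma set what these livers could show. For 31 of the 38 members the interval lay within -1 to 1, that is, a 2-fold difference in either direction was outside it, and for 13 it lay within -0.5 to 0.5, or 1.41-fold. The widest interval was that of *Chek2*, from -1.68 to 1.09. The median within-genotype SD was 0.27 on the log2 scale for the members and 0.26 for all genes, and it fell to 0.16 and 0.14 when WT replicate 2 and FL replicate 3 were left out. The other 7 members were *Atm*, *Chek2*, *Brca1*, *Palb2*, *Blm*, *Fanca* and *Prkdc*, in which a 2-fold difference could lie within the spread between livers.

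At an unadjusted p under 0.05 there were 2 members of 38, *Trp53bp1* and *Xpa*, which is 5.26% against 3.20% of all tested genes. The FL livers all lay below the WT livers in 3 members (*Trp53bp1*, *Parp1* and *Pms2*), against 1.98% of all genes, and all lay above them in 0 members, against 2.77% of all genes. Of the 38 members, 14 (36.8%) had a fold change above 0, against 51.6% of all genes, and without WT replicate 2 it was 17 (44.7%) against 47.8%. Without WT replicate 2 the share of all genes with an unadjusted p under 0.05 was 5.97%, and without both WT replicate 2 and FL replicate 3 it was 9.74%, and 0 members had such a p in either fit.

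**Figure D1:**
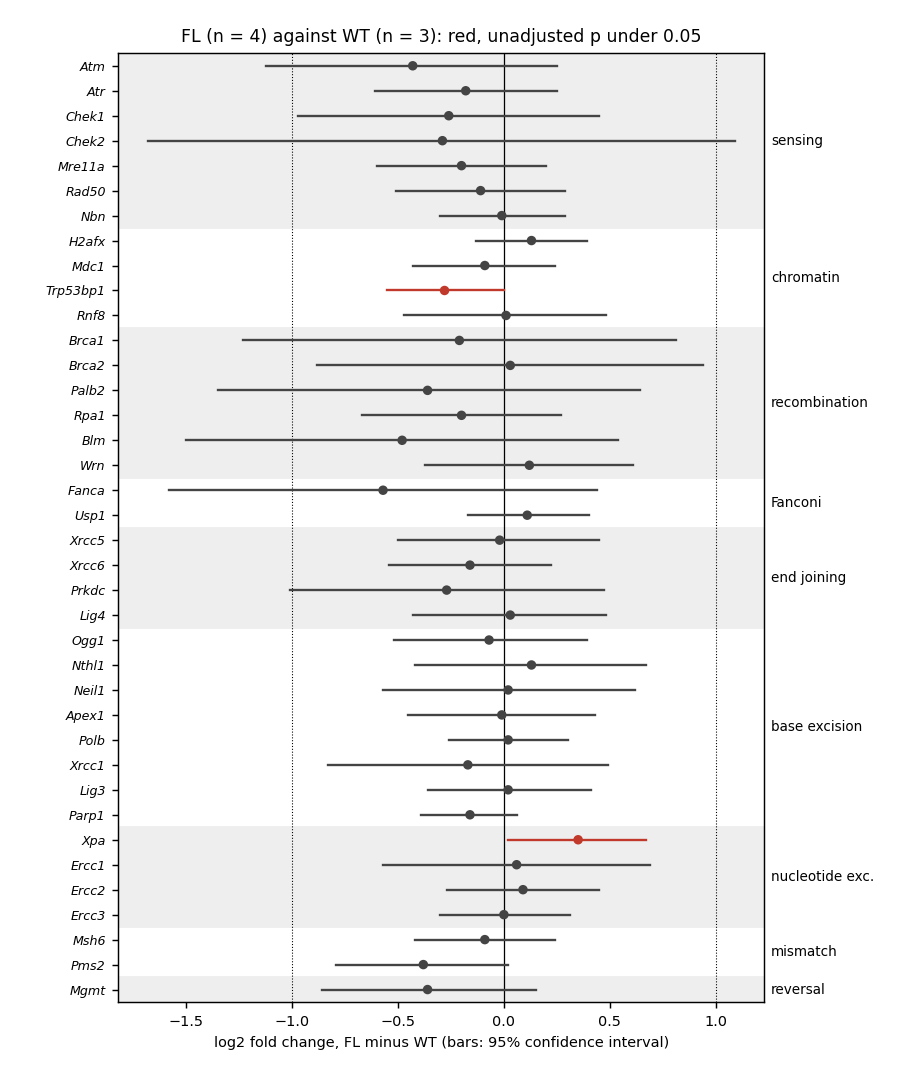
Log2 fold change of each tested damage signalling and repair gene (x axis, FL minus WT), with bars for the 95% confidence interval of limma, grouped by pathway down the y axis; dotted lines mark -1 and 1. The intervals of *Trp53bp1* and *Xpa*, in red, stop short of 0, and the other 36 cross it.

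The damage-sensing kinases and the MRN complex held 7 members. MRN, made of *Mre11a*, *Rad50* and *Nbn*, binds broken ends and recruits the kinase *Atm*, and *Atr* answers to single-stranded DNA. *Chek1* and *Chek2* are the kinases they activate to halt the cell cycle. All 7 had a fold change below 0, from -0.43 for *Atm* to -0.01 for *Nbn*, with a median of -0.20, and 0 had an unadjusted p under 0.05. Without WT replicate 2, 3 of the 7 were above 0, and *Atm*, *Chek1* and *Mre11a* were the 3 below 0 in every setting tried.

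*Atm* was listed at 47, 51, 48 and 29 in FL and at 57, 82 and 42 in WT livers. Its highest liver was WT replicate 2 and its lowest FL replicate 4, and the groups overlapped (log2 fold change -0.43, SE 0.30, limma p = 0.182, adjusted p = 0.999, exact permutation p = 0.286). That value was -0.19 without WT replicate 2, -0.25 without FL replicate 4 and -0.66 without WT replicate 3. *Chek2* was listed at 17, 10, 16 and 18 in FL and at 14, 54 and 8 in WT livers. Its WT mean of 25.3 ± 25.0 (SD, n = 3) rests on replicate 2, which was 4.91 times the mean of the other WT livers. About 6.2% of the 36-base stretches of *Chek2* transcripts, the length of 1 read, also occur in other genes. *Nbn*, which had the highest level per kilobase of exon in this pathway (140 normalised counts per kb), was listed at 398, 349, 313 and 357 in FL and at 388, 314 and 365 in WT livers. In *Nbn* the livers lowest in each genotype were FL replicate 3 and WT replicate 2. The other 4 members ranged from 15 in *Chek1* to 235 in *Atr*, with *Atr*, *Chek1*, *Mre11a* and *Rad50* each highest in WT replicate 2.

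Chromatin signalling at breaks held 4 members. *H2afx* encodes the histone variant whose phosphorylation marks a break, *Mdc1* reads that mark, the ubiquitin ligase *Rnf8* follows, and *Trp53bp1* encodes 53BP1, which protects the ends and favours direct joining. In FL livers 2 were higher and 2 lower, and *Trp53bp1* had the only unadjusted p under 0.05.

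*Trp53bp1* (chromosome 2 of GRCm38, 121193281 to 121271407) was listed at 146, 151, 154 and 145 in FL and at 186, 192 and 165 in WT livers, or 149 ± 4.24 (SD, n = 4) and 181 ± 14.2 (SD, n = 3). The highest FL liver was below the lowest WT liver, and the mean in FL was 82.3% of that in WT. Limma gave a log2 fold change of -0.28 (SE 0.12, p = 0.0480, adjusted p = 0.999), and the exact permutation test, two-sided over 35 splits, gave 0.029, the smallest p that 4 livers against 3 can reach. *Trp53bp1* is transcribed from the strand opposite to the overlapping gene *Tubgcp4*, and the sources used here do not give the strand setting of the counting.

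*H2afx* had the highest level per kilobase of all 41 members, at 296 normalised counts per kb. Its counts were 450, 422, 391 and 436 in FL and 427, 352 and 387 in WT livers, and the groups overlapped (log2 fold change 0.13, SE 0.11, limma p = 0.282, adjusted p = 0.999, exact permutation p = 0.2). *H2afx* shares 8.2% of its 36-base stretches with *Hist1h2ab*, and a part of its messages lacks a poly(A) tail, as is known for histone genes, so its level in polyadenylated RNA is uncertain. *Mdc1* ranged from 153 to 199 and *Rnf8* from 97 to 157, with 15.9% of the 36-base stretches of *Rnf8* also found in other genes.

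Homologous recombination and the RecQ helicases held 6 members. *Brca1*, *Palb2* and *Brca2* act in turn to load the recombinase on resected DNA, *Rpa1* is a subunit of the complex that coats single strands, and *Blm* and *Wrn* are helicases that unwind recombination intermediates. In FL livers 4 were lower and 2 higher (median log2 fold change -0.20), and 0 had an unadjusted p under 0.05. Without WT replicate 2 it was 4 higher and 2 lower. *Brca1* was listed at 24, 37, 64 and 25 in FL and at 27, 70 and 34 in WT livers. *Brca2* was listed at 31, 28, 56 and 34 in FL and at 24, 64 and 28 in WT livers. In both genes WT replicate 2 and FL replicate 3 were the highest livers of their genotype, and the spread within each genotype exceeded the difference between them.

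*Blm* was listed at 10, 26, 19 and 12 in FL and at 17, 38 and 17 in WT livers (log2 fold change -0.48, SE 0.44, limma p = 0.307, adjusted p = 0.999, exact permutation p = 0.400), and the fold change was -0.11 without WT replicate 2, -0.28 without FL replicate 1 and -0.71 without FL replicate 2. *Rpa1*, the member of this pathway with the highest level per kilobase (57.8 normalised counts per kb), was listed at 278, 281, 332 and 305 in FL and at 265, 481 and 316 in WT livers. WT replicate 2 was the highest liver for both *Blm* and *Rpa1*. *Palb2* ranged from 8 to 19, highest in FL replicate 3, and *Wrn* from 76 to 126, highest in WT replicate 2.

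The Fanconi anaemia pathway, which unhooks cross-links between DNA strands, held 4 members, of which 2 were tested. *Fanca* belongs to the core complex that ubiquitylates the pair *Fancd2* and *Fanci*, and *Usp1* encodes the enzyme that removes the ubiquitin. *Fanca* was listed at 12, 26, 27 and 19 in FL and at 21, 57 and 23 in WT livers, which gave the lowest fold change of the tested members (log2 fold change -0.57, SE 0.44, limma p = 0.228, adjusted p = 0.999, exact permutation p = 0.400). It was -0.13 without WT replicate 2 and -0.34 without FL replicate 1. The WT livers other than replicate 2 lay inside the FL range. *Fancd2* was listed at 3, 3, 4 and 2 in FL and at 4, 19 and 3 in WT livers, and *Fanci* at 8, 3, 11 and 12 in FL and at 9, 17 and 4 in WT livers. Each was highest in WT replicate 2, and these counts are too low to compare genotypes. *Usp1*, at 62.0 normalised counts per kb the highest of the pathway, was listed at 261, 251, 214 and 231 in FL and at 235, 202 and 226 in WT livers, and was lowest in WT replicate 2. It shares 28.6% of its 36-base stretches with *Gm5841*, so its level is uncertain.

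Non-homologous end joining, which rejoins broken ends without a template, held 4 members. *Xrcc5* and *Xrcc6* encode the Ku proteins that bind the ends, *Prkdc* the kinase they recruit, and *Lig4* the ligase. In FL livers 3 were lower and 1 higher, with a median log2 fold change of -0.09 and 0 at an unadjusted p under 0.05. Without WT replicate 2 it was 3 higher and 1 lower. *Xrcc5*, the highest of them per kilobase (95.3 normalised counts per kb), was listed at 219, 235, 267 and 233 in FL and at 191, 343 and 216 in WT livers. *Xrcc6* was listed at 220, 195, 226 and 216 in FL and at 209, 309 and 211 in WT livers. *Prkdc* was listed at 53, 53, 72 and 64 in FL and at 50, 127 and 60 in WT livers. In each of these 3 genes WT replicate 2 was the highest liver and FL replicate 3 the next, and WT replicates 1 and 3 lay within or below the FL range. *Lig4* was listed at 107, 111, 87 and 120 in FL and at 127, 82 and 107 in WT livers, with FL replicate 3 and WT replicate 2 the lowest of their genotype.

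Base excision and single-strand break repair was the largest pathway, with 9 members of which 8 were tested. The glycosylases *Ogg1*, *Nthl1*, *Neil1* and *Mutyh* remove or guard against damaged bases, *Apex1* cuts the bared backbone, *Polb* fills the gap, and *Xrcc1*, *Lig3* and *Parp1* scaffold, seal and signal the nick. Of the 8, 4 were higher and 4 lower in FL livers with a median log2 fold change of 0.00, and 0 had an unadjusted p under 0.05.

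*Parp1* was listed at 692, 764, 762 and 670 in FL and at 800, 821 and 803 in WT livers, or 722 ± 48.2 (SD, n = 4) and 808 ± 11.4 (SD, n = 3). The FL livers all lay below the WT livers, and their mean was 89.4% of that in WT. Limma gave a log2 fold change of -0.16 (SE 0.10, limma p = 0.128, adjusted p = 0.999, exact permutation p = 0.086). *Apex1*, the most abundant of the pathway per kilobase (180 normalised counts per kb), was listed at 244, 273, 205 and 294 in FL and at 298, 197 and 279 in WT livers, and FL replicate 3 and WT replicate 2 were the 2 lowest livers.

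*Nthl1* was listed at 42, 43, 60 and 51 in FL and at 40, 59 and 37 in WT livers (log2 fold change 0.13, SE 0.24, limma p = 0.614, adjusted p = 0.999, exact permutation p = 0.571). *Mutyh*, too low to be tested, was listed at 6, 6, 7 and 12 in FL and at 10, 17 and 3 in WT livers. The groups overlapped for both. *Xrcc1* ranged from 108 to 247 and *Neil1* from 67 to 130, each highest in WT replicate 2, and *Lig3* from 342 to 521 and *Polb* from 202 to 248, each lowest there. *Ogg1* ranged from 169 in FL replicate 3 to 268 in WT replicate 2.

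Nucleotide excision repair held 4 members, *Xpa*, which verifies the lesion, *Ercc1*, a subunit of the nuclease that cuts beside it, and *Ercc2* and *Ercc3*, the helicases of TFIIH. All 4 had a fold change above 0, between 0.00 and 0.35 (median 0.07), and *Xpa* had an unadjusted p under 0.05. Without WT replicate 2 it was the only member of the 4 above 0, and the only one above 0 in every setting tried. *Xpa* (chromosome 4 of GRCm38, 46155347 to 46196311) was listed at 175, 231, 204 and 211 in FL and at 179, 148 and 156 in WT livers, or 205 ± 23.2 (SD, n = 4) and 161 ± 16.1 (SD, n = 3). FL replicate 1 lay below WT replicate 1, so the groups overlapped. The log2 fold change was 0.35 (SE 0.14, 95% confidence interval 0.02 to 0.67, limma p = 0.0405, adjusted p = 0.999), and the exact permutation p was 0.086.

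*Ercc3* had the second highest level per kilobase of all members (192 normalised counts per kb), with counts of 590, 608, 459 and 523 in FL and 542, 497 and 587 in WT livers. *Ercc1* was listed at 323, 280, 181 and 297 in FL and at 313, 173 and 300 in WT livers. FL replicate 3 and WT replicate 2 were the 2 lowest livers of *Ercc1*, and the other 5 lay between 280 and 323. *Ercc2* ranged from 364 in WT replicate 2 to 542.

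Mismatch repair held *Msh6*, which binds the mismatch, and *Pms2*, which cuts the strand to be replaced. *Pms2* (chromosome 5 of GRCm38, 143909964 to 143933968) was listed at 46, 55, 47 and 54 in FL and at 57, 71 and 71 in WT livers, or 50.5 ± 4.65 (SD, n = 4) and 66.3 ± 8.08 (SD, n = 3). The FL livers all lay below the WT livers, with 55 in FL replicate 2 and 57 in WT replicate 1 the nearest pair. Limma gave a log2 fold change of -0.38 (SE 0.18, limma p = 0.0614, adjusted p = 0.999, exact permutation p = 0.029, the smallest possible). Its exons share 394 bases with *Gm42421* and 85 with *Rsph10b* on the same strand, of 8117 in all, and read pairs that lie wholly there cannot be told apart. *Msh6*, the higher of the pair per kilobase (42.5 normalised counts per kb), was listed at 163, 165, 187 and 204 in FL and at 202, 205 and 167 in WT livers, and 8.3% of its 36-base stretches occur in other genes.

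Direct reversal was represented by *Mgmt*, which takes alkyl groups off guanine. It was listed at 140, 130, 125 and 166 in FL and at 155, 255 and 145 in WT livers (log2 fold change -0.36, SE 0.22, limma p = 0.141, adjusted p = 0.999, exact permutation p = 0.171), and the fold change was -0.10 without WT replicate 2. That liver was 0.76 above the mean of the other WT livers on the log2 scale, and those lay within the FL range.

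**Figure D2:**
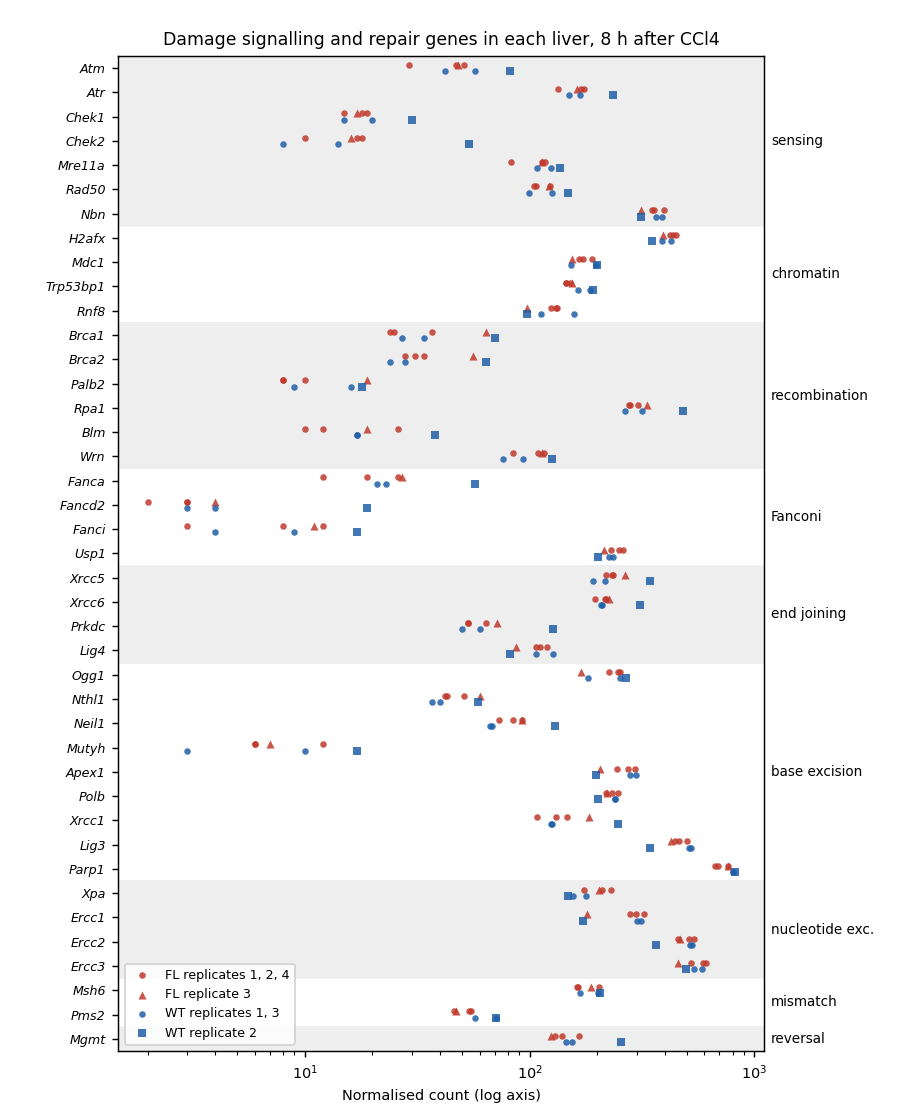
Normalised count of each of the 41 genes in every liver (x axis, log scale), by pathway down the y axis, with FL livers in red and WT livers in blue and separate symbols for FL replicate 3 and WT replicate 2. Levels ran from 2 counts (*Fancd2*) to 821 (*Parp1*), and WT replicate 2 was the outermost liver in most rows.

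Per kilobase of exon, the tested members had a median of 24.9 normalised counts per kb against 67.4 for all tested genes. All 41 members ranged from 0.684 (*Fancd2*) to 296 (*H2afx*). The 5 highest were *H2afx*, *Ercc3*, *Apex1*, *Parp1* and *Nbn*. The 5 lowest were *Fancd2*, *Fanci*, *Palb2*, *Blm* and *Brca2*, which act in cross-link repair or recombination. Others of these pathways were mixed, with *Usp1* (62.0 per kb) and *Rpa1* (57.8 per kb) above the median of the tested members. *Fanca*, *Brca1* and *Wrn* lay below it. *Parp1* (143 per kb) and *Nbn* (140 per kb) are neighbours in this order whose per-kb means differ by less than their spread over livers.

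The larger differences were between livers rather than genotypes. WT replicate 2 was the highest of the 7 livers in 24 of 38 tested members (63.2%), against 32.4% of all tested genes, and the lowest in 10 (26.3%), against 34.5%. It was more than 0.5 above the mean of the other WT livers on the log2 scale in 18 members and more than 0.5 below it in 5, which is 47.4% and 13.2% against 24.5% and 22.2% of all genes. FL replicate 3 and WT replicate 2 deviated from their own genotype in the same direction in 33 of the 38 (86.8%), against 79.8% of all genes.

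This count depends on the scaling and on the level of the gene. With quantile normalisation, chosen after the data had been seen, WT replicate 2 was the highest liver in 14 of the 38 members (36.8%), against 32.5% of all genes. On the log2 scale, the median difference between WT replicate 2 and its group went from 0.37 to 0.15 for the members and from 0.02 to 0.01 for all genes. Low genes as a whole were higher in WT replicate 2, with a median of 0.69 for genes with a mean of 10 to 20 and -0.18 for those at 300 and over. The means behind these groups and the filter at 10 include WT replicate 2, so a gene could enter the lowest group through that liver. How much of the pattern comes from this was not tested. The 4 members at 10 to 20 had a median of 0.94, the 4 at 20 to 50 one of 1.23 (0.62 for all genes there), the 4 at 50 to 100 one of 0.83 (0.35), the 19 at 100 to 300 one of 0.20 (0.10) and the 7 at 300 and over one of -0.21.

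**Figure D3:**
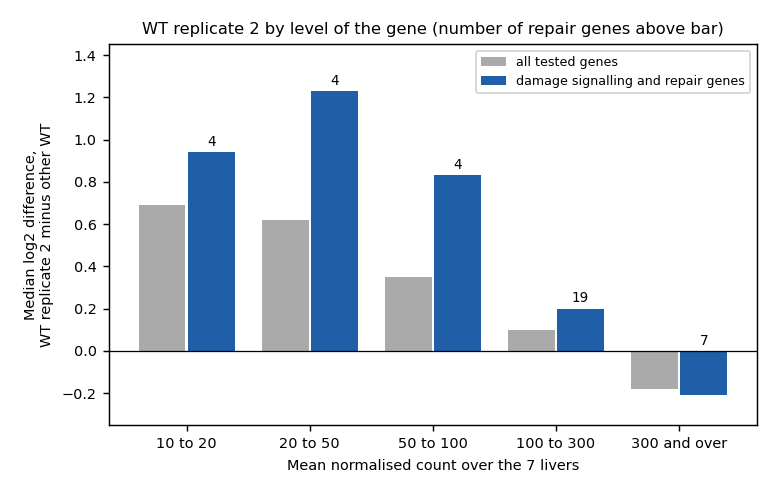
Median log2 difference of WT replicate 2 from the mean of WT replicates 1 and 3 (y axis) for genes grouped by mean normalised count (x axis), in grey for all tested genes and in blue for the damage signalling and repair genes, whose number stands above each bar. Grey bars fall from 0.69 to -0.18, and the blue bars fall from 0.94 to -0.21 with their highest value, 1.23, at 20 to 50. The mean count that sets the groups includes WT replicate 2.

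By pathway, WT replicate 2 was the highest liver in 6 of 7 sensing members, 5 of 6 recombination members, 3 of 4 Fanconi members, 3 of 4 end-joining members, 5 of 9 base excision members, both mismatch members (*Pms2* with WT replicate 3 at the same count) and *Mgmt*, in 2 of 4 chromatin members and in 0 of 4 nucleotide excision members, of which 3 were lowest there. After quantile normalisation the tested members highest in WT replicate 2 were 4 of 7 for sensing, 1 of 6 for recombination, 3 of 4 for end joining, 4 of 8 for base excision, and 0 for chromatin signalling, mismatch and nucleotide excision. *Xrcc5*, *Xrcc6*, *Prkdc*, *Rpa1*, *Chek2*, *Fanca* and *Mgmt* were among those still highest in that liver. *Ercc1* remained below the other WT livers, by 0.82 as deposited and by 0.92 after quantile normalisation on the log2 scale.

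Many markers of dividing cells and of several other cell types were also highest in WT replicate 2. The share of all tested genes highest in that liver depended on their mean, which itself includes that liver. It was 53.7% at 10 to 20, 55.3% at 20 to 50, 49.1% at 50 to 100, 38.1% at 100 to 300 and 19.2% at 300 and over. All 14 proliferation genes, among them *Mki67* and *Top2a*, were highest in WT replicate 2. Their summed level was 195 to 570 normalised counts in FL livers, with the 570 in replicate 3, and 206 to 2139 in WT livers, with the 2139 in replicate 2. *Bub1* was listed at 0 in FL replicate 4, and none of the 14 was at 0 in WT replicate 2. Of 18 DNA replication genes 11 were highest in WT replicate 2, with sums of 1836 to 2040 in FL and 1922 to 2429 in WT livers. Macrophage genes were highest there in 11 of 12, with sums of 7791 to 12202 in FL and 7533 to 20322 in WT livers. For lymphocyte genes it was 10 of 10 (115 to 356 and 123 to 646), with *Cd8a* and *Ms4a1* at 0 in FL replicate 4, and for stellate cell genes 7 of 8 (1283 to 2518 and 1312 to 9787).

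Endothelial genes were highest in WT replicate 2 in 6 of 8 (4250 to 4889 in FL and 3779 to 5550 in WT livers). The table held 5 neutrophil genes, of which 3 were highest there (44 to 122 and 66 to 180), with *Cxcr2* at 0 in FL replicate 2, and *Ly6g*, *Mpo* and *Elane* were not among the rows. Hepatocyte genes were highest there in 2 of 10 and lowest in 5. Their sum, mostly *Alb*, does not show *Cyp2e1* and *Glul*, genes of pericentral hepatocytes. In WT replicate 2 these were 0.157 and 0.25 times the mean of the other WT livers. In FL replicate 3 they were 0.388 and 0.404 times that of the other FL livers. The list was mixed: *Ass1*, *Pck1* and *G6pc* were 1.78, 1.64 and 0.608 times in WT replicate 2 by the same measure. In FL replicate 3 they were 1.75, 1.84 and 0.573 times. Over the 10 genes the median log2 difference from the other livers of the genotype was 0.1 in WT replicate 2 and 0.11 in FL replicate 3. Between genotypes, 8 of the 10 were higher in FL livers and 2 lower, with a median log2 fold change of 0.28. For *Ttr* (log2 fold change 0.39, exact permutation p = 0.029) and *Apoa1* (log2 fold change 0.65, exact permutation p = 0.057) every FL liver lay above every WT liver. Neither gene passed the adjusted test.

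In 3 cholangiocyte genes the genotypes did not overlap either among those tested, without passing the adjusted test. Over all tested genes, the FL livers all lay below the WT livers in 1.98% and all above them in 2.77%. Of 7 cholangiocyte genes, 2 were highest in WT replicate 2, and the sums overlapped (1000 to 1733 in FL and 1149 to 1617 in WT livers). *Krt19* was listed at 21, 11, 6 and 17 in FL and at 128, 106 and 26 in WT livers (limma p = 0.00464, adjusted p = 0.999, exact permutation p = 0.029), and *Krt7* at 14, 8, 2 and 18 in FL and at 33, 33 and 28 in WT livers (limma p = 0.0205, adjusted p = 0.999, exact permutation p = 0.057). *Sox9* was listed at 297 to 763 in FL against 204 to 261 in WT livers (limma p = 0.00494, adjusted p = 0.999, exact permutation p = 0.057). *Cftr* was at 0 in FL replicates 1, 3 and 4, at 1 in FL replicate 2 and at 3 to 5 in WT livers. In bulk tissue a change in the number of cells of a type and a change in RNA per cell cannot be told apart, and the part of these cells in the levels of the repair genes was not tested.

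**Figure D4:**
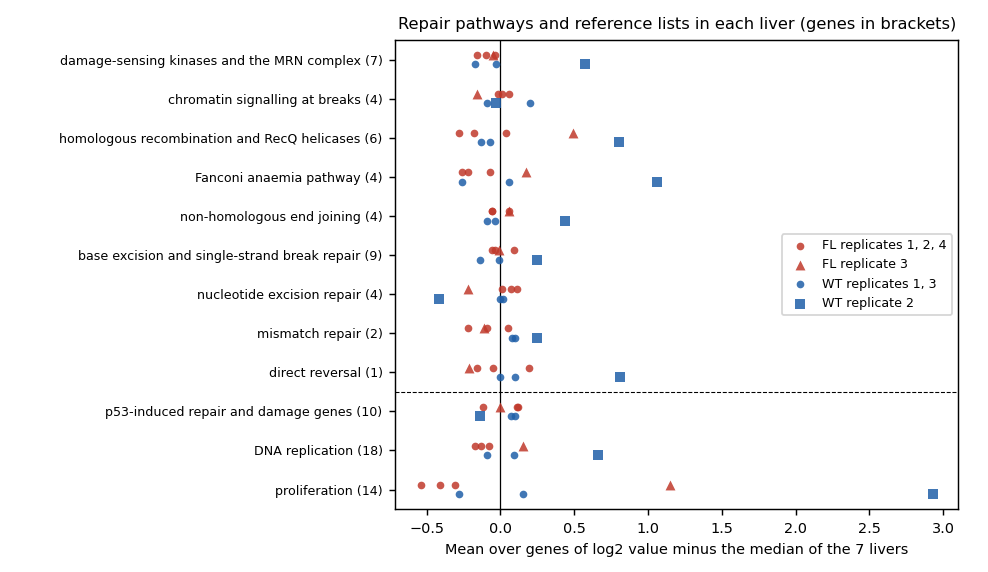
Mean over the genes of each pathway of the log2 value minus the median of the 7 livers (x axis), with 1 point per liver, for the 9 pathways above the dashed line and 3 reference lists below it. WT replicate 2 lies at 0.80 for recombination, 0.44 for end joining, -0.42 for nucleotide excision and 2.93 for proliferation, and WT replicates 1 and 3 lie between -0.28 and 0.20 in all 12 lists.

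Upstream sequence was read for the 6 members with the widest range over the livers (*Fancd2*, *Chek2*, *Fanci*, *Mutyh*, *Fanca* and *Blm*). Of these, *Fancd2*, *Fanci* and *Mutyh* had means under 10. All 6 were highest in WT replicate 2, as were 24 of the 38 tested members and 32.4% of all tested genes. The 6 were picked by their range, which a high value in that liver widens, so this count follows in part from the choice. Whether promoter elements have a part in the levels in that liver was not tested. RefSeq promoters of build GRCm38.p6 were at hand for 5 of the 6, and for 32 of the 41 members. Shown are the 3 with at least 100 bases outside every GENCODE exon in the 250 bases before the RefSeq start, 5′ to 3′ on the gene's strand. Capitals mark a GC box (GGGCGG, both strands), an E2F motif (TTTCGCGC, TTTGGCGC, TTTCCCGC or TTTGGCGG, both strands) or the p53 consensus decamer.

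Chek2, chr5:110839778-110839978, plus strand: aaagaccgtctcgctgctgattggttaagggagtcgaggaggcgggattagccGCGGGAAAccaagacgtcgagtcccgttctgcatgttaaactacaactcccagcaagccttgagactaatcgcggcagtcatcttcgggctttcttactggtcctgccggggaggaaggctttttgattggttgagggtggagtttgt

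Fanca, chr8:123318577-123318826, minus strand: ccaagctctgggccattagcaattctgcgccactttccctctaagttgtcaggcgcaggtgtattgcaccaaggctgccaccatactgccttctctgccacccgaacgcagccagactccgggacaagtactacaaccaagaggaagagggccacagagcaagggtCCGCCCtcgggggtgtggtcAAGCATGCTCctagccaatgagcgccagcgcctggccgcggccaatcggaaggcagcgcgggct

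Blm, chr7:80535120-80535248, minus strand: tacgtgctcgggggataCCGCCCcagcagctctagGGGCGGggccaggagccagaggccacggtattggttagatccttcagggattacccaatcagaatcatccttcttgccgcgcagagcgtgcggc

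*Chek2* holds TTTCCCGC on the reverse strand, and *Fanca* and *Blm* hold GC boxes. In the whole 250-base windows *Fanci* and *Mutyh* hold GC boxes too. GGGCGG occurred in 21 of 32 member windows and in 32.7% of 32851 windows of this length. TTTCCCGC occurred in 4 member windows (*Brca2*, *Chek2*, *Mdc1* and *Xrcc6*) and in 0.895% of all, TTTCGCGC in 1 (*Nthl1*) and 0.256%, TTTGGCGG in 1 (*Rpa1*) and 0.444%, and TTTGGCGC in 0 and 0.417%. The cell cycle homology motif occurred as TTTGAA in 1 member window (*Rnf8*) and 16.0% of all, and as TTCGAA in 2 (*Apex1* and *Atr*) and 1.34%. The p53 decamer occurred in 1, *Fanca*, and in 7.13% of all. None of these motifs overlapped another in the windows shown, and a match is only a description of the letters.

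Beyond the members, 94 other genes of the same pathways were listed, of which 91 were in the table and 84 tested. They had a median log2 fold change of 0.00, with 43 above 0 and 41 below, 0 at an adjusted p under 0.05 and 1 at an unadjusted p under 0.05. That gene was *Ung*, the glycosylase that removes uracil from DNA. *Ung* was listed at 563, 607, 715 and 653 in FL and at 487, 414 and 497 in WT livers, so the groups did not overlap. For *Ung* limma gave a log2 fold change of 0.44 (SE 0.12, limma p = 0.00754, adjusted p = 0.999, exact permutation p = 0.029, the smallest possible). WT replicate 2 was the highest liver in 32 of the 84 (38.1%) and the lowest in 28.

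Of 10 repair and damage-response genes known as p53 targets, 7 had a fold change above 0 and 3 below, and 0 had an unadjusted p under 0.05. *Ddb2*, a damage sensor of nucleotide excision repair, was listed at 43, 47, 50 and 40 in FL and at 41, 69 and 29 in WT livers. *Xpc*, its partner in lesion recognition, was listed at 505, 457, 502 and 506 in FL and at 487, 439 and 482 in WT livers. Neither differed beyond the spread between livers, with log2 fold changes of 0.04 (SE 0.30) and 0.07 (SE 0.10). *Polk*, a polymerase that copies past lesions, was listed at 147, 105, 102 and 119 in FL and at 173, 121 and 194 in WT livers (log2 fold change -0.44, SE 0.21, limma p = 0.0669, adjusted p = 0.999, exact permutation p = 0.114). *Gadd45a*, a growth arrest and repair factor, was listed at 1306, 1480, 681 and 809 in FL and at 651, 426 and 955 in WT livers (log2 fold change 0.66, SE 0.35, limma p = 0.0944, adjusted p = 0.999, exact permutation p = 0.2). For both genes the groups overlapped.

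The stress sensor *Sesn2* ranged from 735 to 1062 in FL livers and was listed at 1223, 430 and 1326 in WT livers. *Btg2*, an antiproliferative gene, ranged from 662 to 904 in FL and was listed at 718, 1202 and 943 in WT livers. In *Sesn2* WT replicate 2 was the lowest liver and in *Btg2* the highest. *Pcna*, the polymerase clamp, stayed between 162 and 209 over all livers, *Rrm2b*, a ribonucleotide reductase subunit, between 17 and 43, *Sesn1* between 145 and 212, and the phosphatase gene *Ppm1d* between 79 and 106. The log2 fold changes of these 4 lay between -0.17 and 0.14.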

How the data were processed

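Liver RNA of 4 FL and 3 WT mice was sequenced as stranded polyadenylated libraries. The authors aligned the reads with TopHat2 version 2.0.13 and Bowtie2 version 2.2.6.0, used HTSeq to count them on genes, and DESeq2 to normalise. The genome is named GRCh38 in the submitters' processing notes, although the reads are from mouse. The deposited values are a score, since the authors rounded the normalised counts to whole numbers, so no count model was used. Of 14988 rows, 120 identifiers occurred more than once with identical values and were kept once. The values of 0 columns were left out.

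Symbols and coordinates came from GENCODE vM21 (GRCm38), with a symbol for 14839 of 14851 identifiers. The genotypes were compared by limma (version 3.58.1, R version 4.3.3, with a trend of variance on mean) after a pseudocount of 1 and a log2 transform, in the 12545 genes whose mean reached 10. Fold changes on this scale are understated for low genes. Adjustment was by Benjamini-Hochberg over all tested genes at a threshold of 0.05, and single genes also had exact two-sided permutation tests over 35 splits. The fit was tested on simulated data with independent noise of limited spread. No simulated liver stood apart as WT replicate 2 and FL replicate 3 did, so that case was not tested. Depth was estimated from the spacing of low values. A level per kilobase is the mean normalised count divided by the exon length of the gene. Python was version 3.11.15, with pandas 2.3.3, NumPy 2.4.6, SciPy 1.17.1 and Matplotlib 3.10.9.

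The members and all lists were chosen with earlier results of these data known. Livers are named for members with an unadjusted p under 0.05, with groups that do not overlap, with the 3 highest or 3 lowest fold changes, with the 5 widest ranges, with the highest level per kilobase in a pathway, or with a mean under 10. Of other repair genes, those with an unadjusted p under 0.05 and the p53-induced genes are named. *Brca1*, *Brca2*, *Xrcc6*, *Prkdc*, *Lig4* and *Ercc1* were given with all livers after their values were seen. The symbols *Fam175a*, *Bre* and *Tf* had no entry in the annotation, and *Rad51b* was not among the rows. Replicate numbers 1 to 3 occur in both genotypes, but the livers came from different mice and no source pairs them. The alternatives were pseudocounts of 0.5 and 5, other filters on low values, quantile normalisation, a median-ratio rescaling, other limma settings, a replicate block, leaving out livers and a covariate.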

Additional observations from a re-analysis of the deposited data

Results flagged for a closer look

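In 50 results the 4 FL livers were searched for 1 liver far from the other 3 relative to their range. It was found in 2, and chance gives about 2.5. *Mre11a* was listed at 83 normalised counts in FL replicate 2 and at 114 to 117 in the other FL livers, a gap of 0.912 of the range. *Mutyh* was listed at 12 in FL replicate 4 and at 6 to 7 in the others, a gap of 0.833 of the range. Neither liver is 1 of the pair that stood apart along the first principal component, and *Mutyh* was too low to be tested.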

How the results depend on the processing

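Of 412 results under alternatives, 379 were labelled unchanged. A named gene was so labelled if its fold change kept its sign and its side of the threshold. A count was so labelled if it stayed within a fixed ratio of the main count. The median fold change had to keep its sign and move by no more than the median within-genotype SD. Members above 0 going from 14 to 10 with the replicate block therefore counted as unchanged. The 2 genes with an adjusted p under 0.05 among all tested genes became 0 under several settings. These were a pseudocount of 5, a mean of at least 50, a minimum of 10 in every liver, no trend and the replicate block. There was 1 with quantile normalisation, 6 without both WT replicate 2 and FL replicate 3, and 0 to 5 when each liver was left out. With the first within-group component as a covariate there were 144. That component was computed from the same values within each genotype. It could not change a fold change, and it lowered the residual spread, so its p-values are no separate check. Members past an adjusted p of 0.05 stayed at 0 in the main comparison and all 19 other settings of limma, with the lowest adjusted p, 0.193, under the covariate. Where 0 genes passed in all, 110 to 739 had an unadjusted p under 0.05. The 2 members with an unadjusted p under 0.05 became 1 with no filter on low values, 1 with quantile normalisation, 0 with the replicate block and 0 without both livers, and 0 to 2 when each liver was left out. *Pms2* joined *Trp53bp1* and *Xpa* past it with the covariate and without a trend, and was past it with *Xpa* without WT replicate 1. The 3 members with groups apart became 2 with quantile normalisation, 7 without both livers and 3 to 7 when each liver was left out, where fewer livers make separation easier. *Nthl1* ran from 0.00, reversed, without WT replicate 3 to 0.33 without WT replicate 2, and *Ddb2* from -0.24 without WT replicate 3, with -0.01 without FL replicate 3, to 0.37 without WT replicate 2. The members highest in WT replicate 2 went from 24 to 14 with quantile normalisation. The cause of these changes was not tested.

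Deviations of same-numbered livers correlated at 0.44, -0.48 and -0.66. WT replicate 2 and FL replicate 3, which stood apart, carry different numbers, so these correlations cannot decide whether the numbers pair livers. The block left 10 members of 38 above 0 in place of 14. FL replicate 4 has no WT liver of its number, so the block gave the same fold changes as leaving that liver out. It is therefore no test of pairing. Only 14 of the 38 members had the same sign of fold change in every setting, among them *Trp53bp1*, *Xpa*, *Parp1* and *Pms2*. The covariate, the filters on low values and the settings that changed only the variance model could not change a sign. In *Trp53bp1*, *Parp1* and *Pms2* the groups did not overlap. For them, leaving out livers, the replicate block or another pseudocount could not change it either, so a kept sign is no separate check. The source names of the WT livers share 1 prefix that no FL liver has. No source says what it stands for, and whatever it marks cannot be told apart from genotype. The design holds no untreated liver, so no response to CCl4 was measured.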
